A study of Rattus norvegicus with 15 samples.

Results

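The alpha and mu classes of cytosolic glutathione transferases were examined in the liver of fipronil-treated and vehicle-treated rats. Members were the genes Gsta1 to Gsta5 and Gstm1 to Gstm5, 10 symbols in all, and every non-control array probe carrying a member's name or older alias was taken. The rule found 11 of 41012 probes. Another 2 probes reached a member only through a transcript accession (Gstm4) or a description (Gsta4), and they are given separately from the counts over the 11.

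The rats were female Wistar Crl:WI animals aged 2 to 3 months and weighing 225 to 250 g at the end. Fipronil, a phenylpyrazole insecticide, was given by gavage for 14 days at 3 mg/kg per day to 8 rats. The other 7 rats received only its vehicle, methylcellulose with a Tween detergent in water. RNA from a piece of the large liver lobe was labelled with Cy3, and each rat had its own Agilent array, on 4 slides that each held both groups. Slides 1, 2 and 4 held 2 rats of each group, and slide 3 held 2 fipronil rats and 1 vehicle rat.

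Glutathione transferases are dimeric enzymes of the cytosol that join the tripeptide glutathione to electrophilic chemicals, which can then leave the cell through export pumps. Alpha and mu subunits are among the abundant proteins of rat hepatocytes. Alpha enzymes also reduce lipid hydroperoxides and bind bilirubin and other organic anions, and mu enzymes act on epoxides and quinones. Several of these genes are known in rodent liver as targets of the xenobiotic receptors CAR and PXR and of NRF2, the factor of the antioxidant response.

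Present RefSeq symbols are used throughout, and 4 of the 11 probes have another name on the array. Of these, 3 carry what is now another gene's symbol. The probe named Gsta3 on the array measures present Gsta1, Gstm4 measures present Gstm3, and Gstm3 measures present Gstm7, a mu gene outside the member symbols. The probe named Yc2, an alias, measures present Gsta3. Gsta2 had 2 probes, of which the second is also listed against a Gsta5 transcript and is written Gsta2/Gsta5. Gsta5 had no probe of its own, and the other 9 members did. Gstm5 had 3 probes, of which those called probe 2 and probe 3 come from an expressed sequence tag.

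In build rn4 the 8 mu probes taken here lay on chromosome 2 between positions 203457561 and 203606415, a span of 149 kb. A probe for Gstm6, a mu gene outside the member symbols, was above background on 0 arrays and was left out. Of the alpha probes, Gsta2, Gsta2/Gsta5 and Gsta4 lay on chromosome 8 between 83172208 and 83302993. Gsta1 and Gsta3 lay on chromosome 9 between 20029511 and 20051717. No genome of that build was used, so the exon under each probe is not given. Related transcripts can share sequence, and hybridisation of a probe to a neighbouring member was not tested.

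Signal below means log2 intensity minus the log2 of its array's 75th percentile, taken over non-control probes, so 0 is that percentile. Levels are compared within a probe, never between probes. A probe was tested when well above background on at least 7 of 15 arrays, and a difference was called at a Benjamini-Hochberg adjusted p under 0.05 over 23258 probes in limma. The 75th percentile itself was 210 ± 25.8 intensity units (SD, n = 8) in fipronil rats and 172 ± 33.3 (SD, n = 7) in vehicle rats, a log2 difference of 0.31. Correlations between arrays across probes were 0.967 to 0.991, with probes not being independent replicates. All 8 hepatocyte markers were above background on every array, 0 of the 8 were called by limma, and 4 had an unadjusted p under 0.05. Of 37 markers of 7 other cell types, 27 of the 35 with a probe were tested, 0 of the 27 were called and 6 had an unadjusted p under 0.05. Of all tested probes, 17.2% had an unadjusted p under 0.05 in either direction. Cd3e and Mpo, which mark T cells and neutrophils, were above background on no array.

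No member passed the test in the reported fit. Of 26 alternative settings given below, Gstm2 passed in 7, Gsta4 in 5 and Gstm1 in 4, and Gsta3 passed in 1 of 25. Of the 11 probes, 9 were bright enough to test, and 0 were called higher and 0 lower, where 0.533% of all tested probes were called higher and 0.288% lower. At an unadjusted p under 0.05 the same fit had 6 of the 9 probes higher and 2 lower, against 6.52% and 10.7% of all tested probes. Both of the lower probes, Gsta1 and Gsta2/Gsta5, were saturated on nearly all arrays. The median difference, fipronil minus vehicle, was 0.37 over the 9 probes and -0.02 over all 23258. Without saturated spots, 5 of the 9 probes gave a value and their median was 0.62. With the Gstm4 and Gsta4 probes added, 9 of 11 tested probes had a positive difference, against 45.7% of all tested probes. In no member probe were the groups free of overlap, a pattern that 0.374% of all tested probes showed with fipronil higher and 0.224% with fipronil lower. In whole liver tissue, a change in the proportion of a cell type and a change in RNA per cell cannot be told apart.

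**Figure D1:**
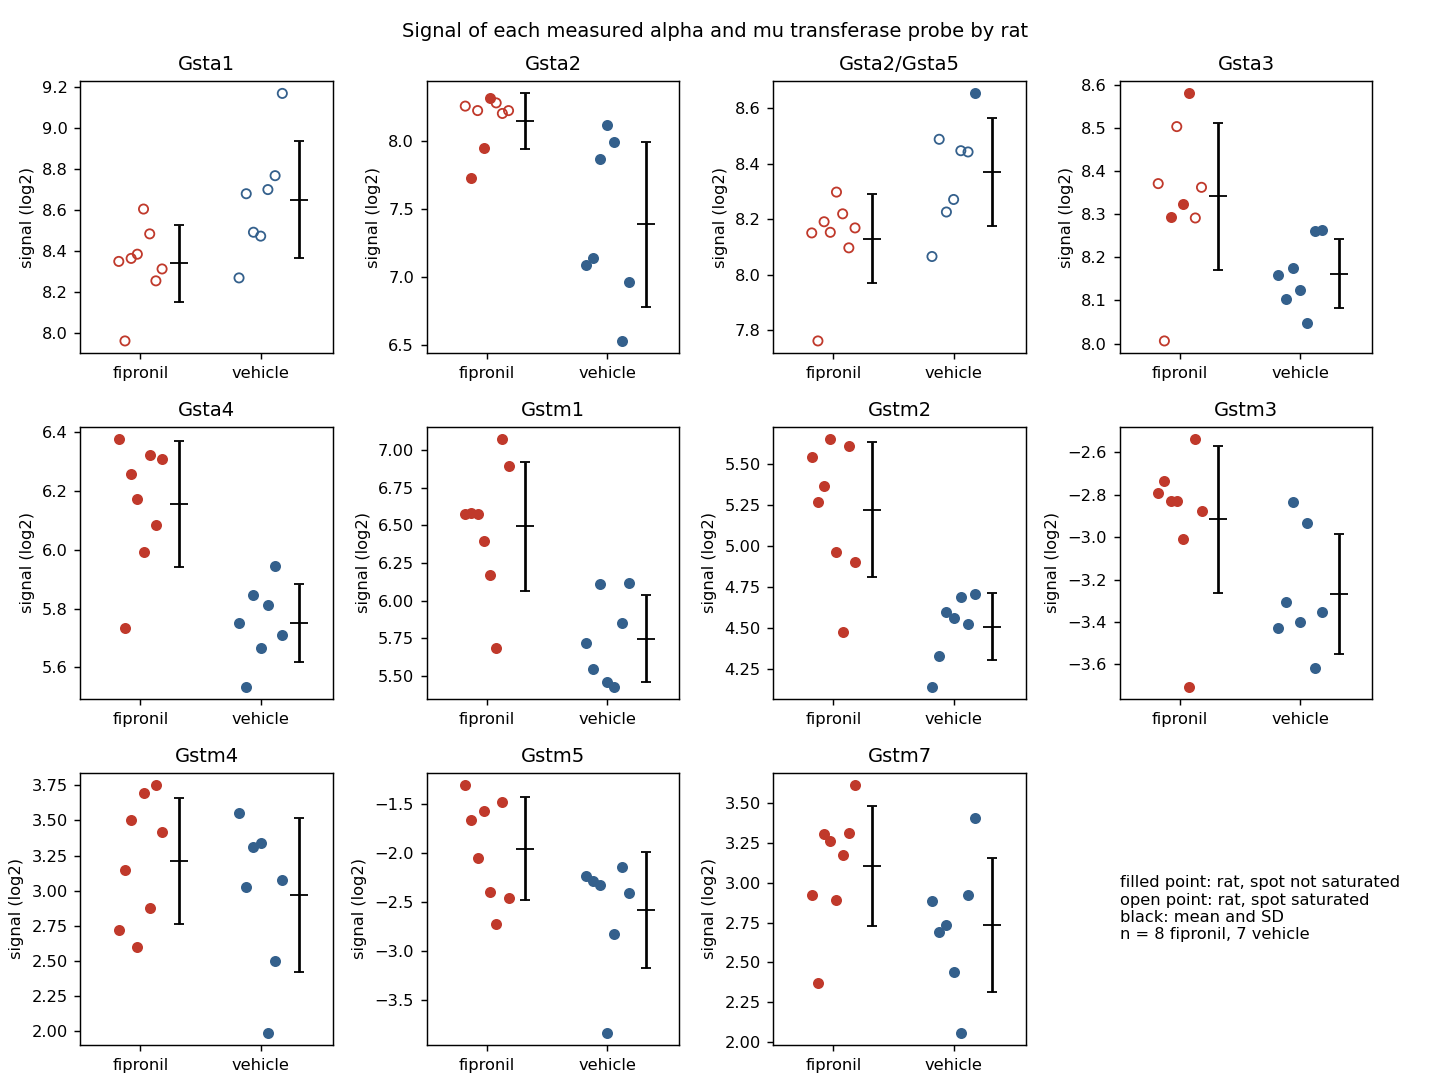
Signal of the 11 tested alpha and mu probes in each rat (y axis, log2, scaled to the array's 75th percentile), fipronil at left and vehicle at right. Each point is a rat, open points are saturated spots, and the black marks are mean and SD (n = 8 and 7). All Gsta1 points are open. In Gsta4, Gstm1 and Gstm2, 7 of 8 fipronil rats lie above the highest vehicle rat.

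All 6 tested mu probes had a positive difference, none past the test. Gstm1 and Gstm2 are the major mu subunits of adult rat liver and conjugate aryl halides, epoxides and quinones. Their promoters from RefSeq, build GRCr8, are shown because these are the member probes with the smallest p. Each runs 5′ to 3′ from 250 bases before to 50 bases after the start site, at chr2:198343334-198343633 and chr2:198316868-198317167, both on the minus strand. Capitals mark a TATA box (TATAAA).
Gstm1: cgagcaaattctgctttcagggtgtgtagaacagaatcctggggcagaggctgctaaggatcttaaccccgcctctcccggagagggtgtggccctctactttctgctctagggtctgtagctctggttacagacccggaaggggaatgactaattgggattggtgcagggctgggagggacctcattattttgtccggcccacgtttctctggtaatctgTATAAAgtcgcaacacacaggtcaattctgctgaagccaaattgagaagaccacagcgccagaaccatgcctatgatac
Gstm2: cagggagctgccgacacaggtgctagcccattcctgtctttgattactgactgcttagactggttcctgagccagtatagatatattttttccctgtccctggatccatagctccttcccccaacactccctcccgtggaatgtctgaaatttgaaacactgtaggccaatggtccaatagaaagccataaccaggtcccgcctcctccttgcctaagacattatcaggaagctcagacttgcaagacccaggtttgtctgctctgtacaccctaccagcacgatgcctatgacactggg
The Gstm1 window held TATAAA starting 29 bases before the start site, and 14.2% of 33469 rat promoters of this length hold it on either strand. The Gstm2 window held none of the 4 motifs searched, which were the TATA box, the antioxidant response element core TGACNNNGC, the aryl hydrocarbon receptor core written GCGTG, and the HNF1 palindrome, on both strands. The pair were 49.2% identical when aligned. Pairs of an alpha and a mu promoter were 40.9% to 50.3% identical in the same alignment.

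Gstm2 had a lowest, median and highest signal of 4.47, 5.31 and 5.65 in fipronil rats, against 4.14, 4.56 and 4.70 in vehicle rats. In 7 of 8 fipronil rats it exceeded the highest vehicle rat, and fipronil replicate 6 was the exception. Its mean was 5.22 ± 0.41 (SD, n = 8) in fipronil rats and 4.51 ± 0.20 (SD, n = 7) in vehicle rats, which is 1.64-fold (log2 0.72, SE 0.16, limma adjusted p = 0.0524). By unadjusted p it ranked at place 198, and 191 of the 23258 probes (0.821%) were called. Within slides 1 to 4 the difference was 1.17, 0.93, 0.03 and 0.64, and the low value came from the slide of fipronil replicate 6. Across 26 alternative settings the difference was 0.65 to 0.82, and it passed in 7 of them. Those 7 were normexp with quantile normalization, the authors' deposited values, a filter requiring all 15 arrays, slide as a block, array weights, and leaving out fipronil replicate 5 or 6. Adjusted p over the 26 ran between 0.00961 and 0.243.

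Gstm1 had a lowest, median and highest signal of 5.69, 6.57 and 7.07 in fipronil rats, against 5.43, 5.72 and 6.12 in vehicle rats. Again 7 of 8 fipronil rats exceeded every vehicle rat, and replicate 6 did not. The mean was 6.49 ± 0.43 (SD, n = 8) in fipronil rats and 5.75 ± 0.29 (SD, n = 7) in vehicle rats, or 1.68-fold (log2 0.75, SE 0.18, limma adjusted p = 0.0623). The difference had the same sign on all 4 slides, at 0.95, 0.70, 0.50 and 1.00. With slide as a block it was 0.81 and passed (limma adjusted p = 0.00657). It also passed with array weights (0.88, limma adjusted p = 0.0127) and without fipronil replicate 6 or vehicle replicate 3, in 4 of 26 alternatives, over which adjusted p ran between 0.00657 and 0.339.

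The other mu probes had smaller or more variable differences. Gstm7 averaged 3.11 ± 0.38 (SD, n = 8) in fipronil rats and 2.73 ± 0.42 (SD, n = 7) in vehicle rats (log2 0.37, SE 0.19, limma adjusted p = 0.331). Only 1 fipronil rat exceeded the highest vehicle rat, and the difference was 0.62 with array brightness as a covariate. Gstm4, whose probe carries a clone name on the array, averaged 3.21 ± 0.45 (SD, n = 8) in fipronil rats and 2.97 ± 0.55 (SD, n = 7) in vehicle rats (log2 0.24, SE 0.24, limma adjusted p = 0.645). Its within-slide differences had opposite signs, at -0.36, -0.27, 1.30 and 0.80 on slides 1 to 4. The difference was 0.08 without vehicle replicate 5 and 0.07 with array brightness as a covariate.

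Gstm3 and Gstm5 were dim in liver, each above background in all 8 fipronil rats and in 6 of the 7 vehicle rats. Gstm5 is a mu subunit known mainly from brain and testis. Its probe 1 averaged -1.96 ± 0.53 (SD, n = 8) in fipronil rats and -2.58 ± 0.59 (SD, n = 7) in vehicle rats (log2 0.62, SE 0.26, limma adjusted p = 0.245), and the difference was 0.41 without vehicle replicate 4. Gstm3 averaged -2.92 ± 0.35 (SD, n = 8) in fipronil rats and -3.27 ± 0.28 (SD, n = 7) in vehicle rats (log2 0.35, SE 0.16, limma adjusted p = 0.263). With normexp background correction and quantile normalization these differences were 0.26 for Gstm5 and 0.11 for Gstm3, each smaller by more than 1.5 times. Neither passed in any of 25 alternatives. Gstm5 probes 2 and 3 were above background on 0 of 15 arrays and were not tested. Probes 2 and 3 have minus-strand coordinates in rn4, whereas those of probe 1 are plus-strand, as is the Gstm5 promoter in GRCr8. Whether probes 2 and 3 can read the Gstm5 transcript was not tested.

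**Figure D2:**
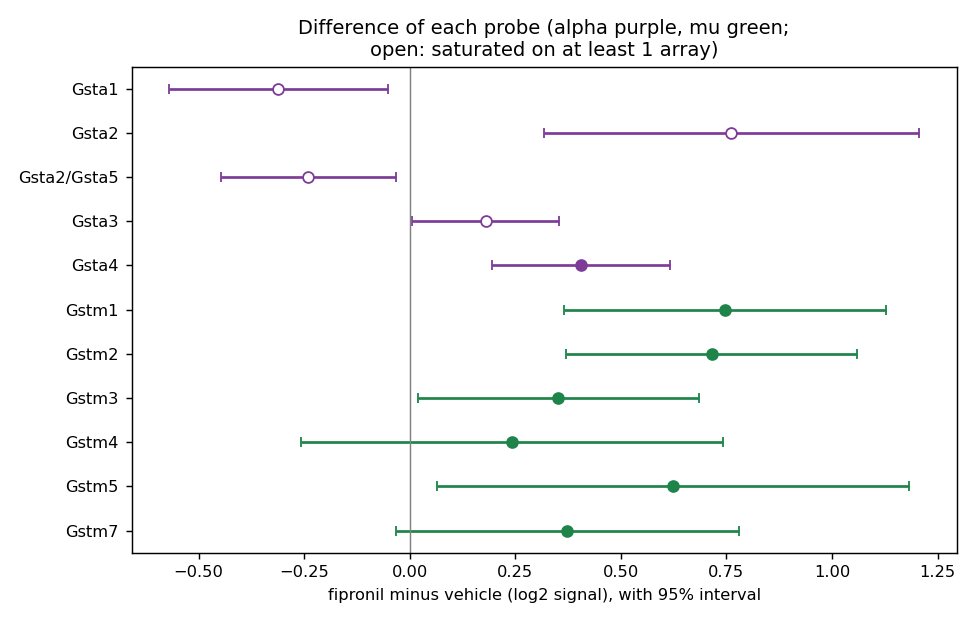
Difference in signal, fipronil minus vehicle (x axis, log2), for the 11 tested probes (y axis), with 95% intervals from limma before any adjustment. Purple is the alpha class, green the mu class, and open symbols mark probes saturated on at least 1 array. The 6 mu probes lie between 0.24 and 0.75, and the lowest values, -0.31 and -0.24, are the saturated Gsta1 and Gsta2/Gsta5.

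Of the alpha probes, only that of Gsta4 was saturated on no array, which limits comparison of the rest. Gsta2 encodes the Ya subunit, known in rat liver as ligandin for its binding of bilirubin and steroids. The Gsta2 and Gsta4 promoters are shown as those of the alpha probes with the smallest p, from RefSeq, build GRCr8, 5′ to 3′, at chr8:88077043-88077342 on the minus strand and chr8:87947015-87947314 on the plus strand. Capitals mark GCGTG (the core bound by the aryl hydrocarbon receptor) and TGACNNNGC (the core of the antioxidant response element), or their reverse complements.
Gsta2: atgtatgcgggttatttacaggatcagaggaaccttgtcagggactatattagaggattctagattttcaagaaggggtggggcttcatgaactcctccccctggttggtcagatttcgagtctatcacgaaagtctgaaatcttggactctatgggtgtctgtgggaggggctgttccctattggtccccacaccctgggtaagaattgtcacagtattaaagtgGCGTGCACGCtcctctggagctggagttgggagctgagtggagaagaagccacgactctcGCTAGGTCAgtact
Gsta4: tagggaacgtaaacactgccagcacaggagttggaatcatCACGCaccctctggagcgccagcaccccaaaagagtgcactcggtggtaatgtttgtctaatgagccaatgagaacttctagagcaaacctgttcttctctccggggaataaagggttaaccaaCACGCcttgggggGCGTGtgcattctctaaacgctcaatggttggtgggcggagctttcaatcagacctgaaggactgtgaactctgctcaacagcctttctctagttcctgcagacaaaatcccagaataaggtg
In Gsta2 the GCGTG core started 24 and 19 bases before the start site, once on each strand, and the response element core lay after the start site on the reverse strand. Gsta4 held GCGTG starting 210, 86 and 73 bases before the start site, counting both strands. GCGTG is in 29.7% and TGACNNNGC in 12.1% of the 33469 promoters. These matches describe the letters and not binding.

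Gsta2 had a lowest, median and highest signal of 7.73, 8.22 and 8.32 in fipronil rats, against 6.53, 7.14 and 8.12 in vehicle rats. All 8 fipronil rats were above the vehicle mean and 6 were above the highest vehicle rat. The mean was 8.15 ± 0.20 (SD, n = 8) in fipronil rats and 7.39 ± 0.61 (SD, n = 7) in vehicle rats, or 1.70-fold (log2 0.76, SE 0.21, 95% interval 0.32 to 1.21, limma adjusted p = 0.0959). Saturation marked 5 of the 8 fipronil spots and 0 of the 7 vehicle spots, so those 5 fipronil values are readings at the scanner's ceiling, and the fold and its interval may be too low. Differences within slides 1 to 4 were 0.88, 0.09, 0.30 and 1.47. In 24 alternatives the difference was 0.62 to 0.89 and passed in none, with adjusted p between 0.0588 and 0.488.

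Gsta4, which conjugates 4-hydroxynonenal and other products of lipid peroxidation, was measured by a probe named only in its description. Its lowest, median and highest signals were 5.73, 6.22 and 6.38 in fipronil rats, against 5.53, 5.75 and 5.94 in vehicle rats. In 7 of 8 fipronil rats it exceeded every vehicle rat. The mean was 6.16 ± 0.21 (SD, n = 8) in fipronil rats and 5.75 ± 0.13 (SD, n = 7) in vehicle rats, or 1.32-fold (log2 0.40, SE 0.10, limma adjusted p = 0.0664). The within-slide differences were the most even of the 4 probes described in full, at 0.41, 0.46, 0.35 and 0.37. It passed in 5 of 26 alternatives, which were normexp, the authors' deposited values, quantile normalization, array weights and leaving out fipronil replicate 2, with adjusted p between 0.0149 and 0.219 over the 26.

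A pair of probes on other chromosomes carry descriptions like that of Gsta4. Their differences were 0.40 (SE 0.10, limma adjusted p = 0.0783) on rn4 chromosome 3 and 0.37 (SE 0.10, limma adjusted p = 0.0787) on chromosome 6. Whether the 3 probes detect separate transcripts was not tested.

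Gsta3, the Yc2 subunit known in rat for conjugating aflatoxin epoxide, had a lowest, median and highest signal of 8.01, 8.34 and 8.58 in fipronil rats, against 8.05, 8.16 and 8.26 in vehicle rats. In 7 of 8 fipronil rats it exceeded every vehicle rat, and the remaining rat, fipronil replicate 2, was the lowest of all 15. That rat's spot was saturated, on the brightest array. Before scaling, its log2 intensity was 16.08, against 15.90 in the highest vehicle rat. The difference was 0.18 (SE 0.08, limma adjusted p = 0.279), with 5 of 8 fipronil and 0 of 7 vehicle spots saturated. With quantile normalization of processed intensity it was 0.34 and passed (limma adjusted p = 0.0263), the only 1 of 25 alternatives in which it did, and adjusted p over the 25 reached 0.415.

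Gsta1, the Yc1 subunit, could not be compared, since saturation marked its spots in all 8 fipronil rats and all 7 vehicle rats. Before scaling, its log2 intensity averaged 16.04 with fipronil and 16.05 with vehicle and stayed between 15.98 and 16.13 on all 15 arrays. After scaling, the values were 8.34 ± 0.19 (SD, n = 8) in fipronil rats and 8.65 ± 0.29 (SD, n = 7) in vehicle rats, a difference of -0.31 (SE 0.12, limma adjusted p = 0.216). Array brightness was higher with fipronil by 0.31 on the log2 scale. No fold is given for this probe.

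Gsta2/Gsta5 was also limited by saturation, with 8 of 8 fipronil and 6 of 7 vehicle spots saturated. Its log2 intensity before scaling averaged 15.84 with fipronil and 15.77 with vehicle. The scaled difference was -0.24 (SE 0.10, limma adjusted p = 0.226). The sign of this probe's difference changed with normexp and quantile normalization (0.03) and in the authors' deposited values (0.0031), and that of Gsta1 changed with normexp (0.0001). The 2 member probes that were lower at an unadjusted p are these. Over the 7 tested probes saturated on no array, Gsta4 and Gstm4 included, all 7 differences were positive, with a median of 0.40.

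**Figure D3:**
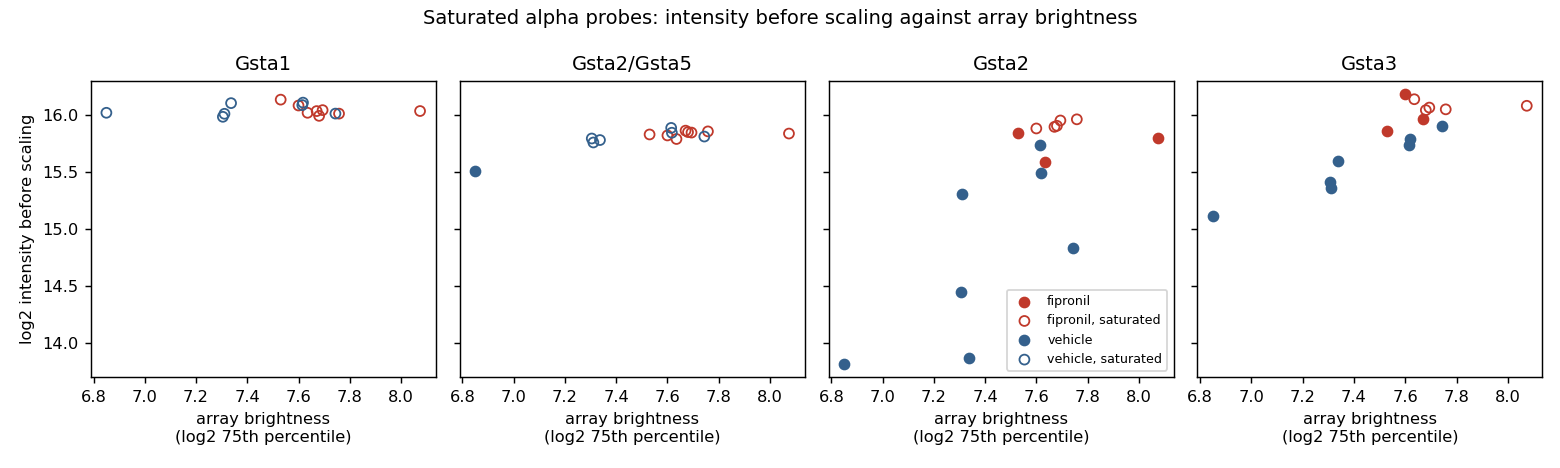
Log2 intensity before scaling (y axis) against array brightness (x axis, log2 of the array's 75th percentile of intensity) for 4 alpha probes, each point a rat, red for fipronil and blue for vehicle. Open points are saturated spots. Gsta1 stays between 15.98 and 16.13 whatever the brightness, whereas Gsta2 spans 13.81 to 15.96.

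Some mu probes varied together within the fipronil group by Pearson correlation. Each rat had its own array, so variation between rats and between arrays cannot be told apart, and the probes share each array's scaling. Correlations between the 6 tested mu probes were computed within each group, 30 relations in all, each with an exact permutation test. In fipronil rats Gstm2 and Gstm5 had Pearson r = 0.93 (n = 8, exact permutation p = 0.0011, adjusted p = 0.0335) and Spearman rho = 0.88 (exact permutation adjusted p = 0.123). Without the 2 rats farthest from the Gstm2 median, r was 0.85. Gstm3 and Gstm5 had r = 0.76 (rho 0.86, exact permutation adjusted p = 0.034 for r and 0.123 for rho) and 0.74 without 2 rats.

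For Gstm1 and Gstm3, r was 0.89 (rho 0.69, exact permutation adjusted p = 0.034 for r and 0.416 for rho) and 0.49 without 2 rats, so that relation rests on those rats. For Gstm2 and Gstm3, r was 0.85 (rho 0.74, exact permutation adjusted p = 0.0456 for r and 0.344 for rho) and 0.67 without 2 rats. These 4 of 15 pairs passed by Pearson in fipronil rats, 0 of 15 passed by Spearman, and 0 of 15 passed in vehicle rats by either. The median r was 0.30 with fipronil and 0.06 with vehicle, and the difference between groups was not tested. Each slide held 2 fipronil rats. With each slide's mean removed, r in fipronil rats was 0.96 for Gstm2 and Gstm5, 0.94 for Gstm1 and Gstm3, 0.77 for Gstm2 and Gstm3 and 0.59 for Gstm3 and Gstm5, given as a description over 4 slides. Fipronil replicate 6 had the lowest signal of its group for Gstm1, Gstm2, Gstm3 and Gstm5.

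**Figure D4:**
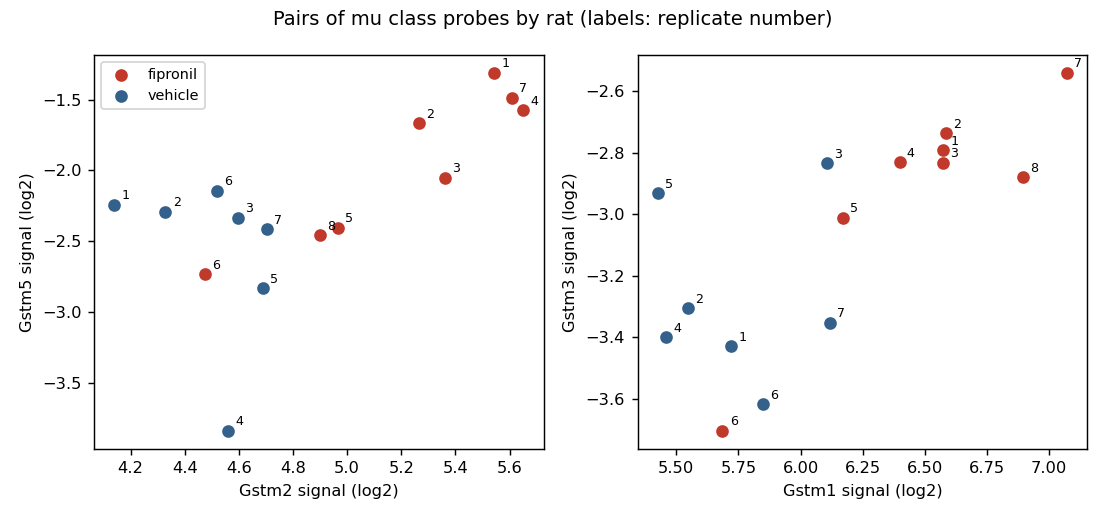
Signal of Gstm5 against Gstm2 (left) and of Gstm3 against Gstm1 (right) in each rat (log2, scaled to the array's 75th percentile), red for fipronil and blue for vehicle, labelled with replicate numbers. In fipronil rats r was 0.93 at left and 0.89 at right, and fipronil replicate 6 is the lowest fipronil rat on every axis.

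Across the alternatives that gave a value, the difference was 0.65 to 0.82 for Gstm2, 0.66 to 0.88 for Gstm1, 0.37 to 0.47 for Gsta4 and 0.62 to 0.89 for Gsta2. With array brightness as a covariate, limma adjusted p was 0.339 for Gstm1, 0.243 for Gstm2, 0.219 for Gsta4 and 0.488 for Gsta2.

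Among the other transferase classes, 1 probe passed the test. Of 18 genes, mainly of the theta, pi, kappa, omega, zeta and microsomal classes but with Gstm6, Gstm7 and Gsta6 among them, 13 had a probe other than the 13 counted above, and 13 of their 16 probes were tested. None was called higher and 1 was called lower, against 0.533% and 0.288% of all tested probes. At an unadjusted p under 0.05 limma had 2 higher and 1 lower, against 6.52% and 10.7% of all tested probes. Gstt2, a theta class enzyme, had a lowest, median and highest signal of 2.39, 2.46 and 2.63 in fipronil rats, against 2.84, 2.91 and 3.19 in vehicle rats, without overlap. It fell 1.39-fold, to 2.49 ± 0.08 (SD, n = 8) in fipronil rats, against 2.96 ± 0.12 (SD, n = 7) in vehicle rats (log2 -0.47, SE 0.07, limma adjusted p = 0.00335). Another Gstt2 probe had a difference of -0.13 (SE 0.13, limma adjusted p = 0.662), and the probes were not tested against each other. The call was lost in the authors' deposited values (-0.36, limma adjusted p = 0.0767) and with replicate number as a block (-0.46, limma adjusted p = 0.0666), and adjusted p over its 25 alternatives was as low as 0.00199. The pi class gene Gstp1 had differences of 0.43 and 0.24 in its 2 probes (limma adjusted p = 0.15 and 0.197).

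The genes that supply glutathione and carry off its conjugates numbered 41, of which 40 had a probe. Of their 50 probes, 44 were tested, 1 was called higher and 0 lower, against 0.533% and 0.288% of all tested probes. At an unadjusted p under 0.05, 7 were higher and 2 lower, against 6.52% and 10.7% of all tested probes. The lower probes were a Gpx1 probe saturated on all 15 arrays (-0.33) and an Abcc4 probe (-0.36). The median difference of the 44 was -0.0033. Ggt1, the membrane peptidase that opens glutathione breakdown, had a lowest, median and highest signal of -2.35, -0.85 and -0.41 in fipronil rats, against -3.19, -2.62 and -2.28 in vehicle rats. It rose 2.92-fold, to -1.14 ± 0.73 (SD, n = 8) in fipronil rats, against -2.68 ± 0.39 (SD, n = 7) in vehicle rats (log2 1.55, SE 0.28, limma adjusted p = 0.0142). Within slides the difference was 0.92 to 2.29. It was 0.67 with normexp and quantile normalization and 0.80 in the authors' deposited values, smaller by over 1.5 times with the call kept. Over 26 alternatives it reached 1.72, and the call was lost with array brightness as a covariate (1.26, limma adjusted p = 0.229, against 0.000526 at the lowest).

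Several genes of glutathione supply stood near the threshold without passing. Gsr, glutathione reductase, differed by 0.49 (SE 0.11, limma adjusted p = 0.0544), and Gclc, the catalytic subunit that makes gamma-glutamylcysteine, by 0.51 (SE 0.13, limma adjusted p = 0.0686). Abcc2, the canalicular pump for conjugates, differed by 0.43 (SE 0.11, limma adjusted p = 0.0763). The genes Gsr, Gclc and Abcc2 were chosen after their values were seen.

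Of 22 redox and phase II companions with 30 probes, 27 probes were tested, 3 were called higher and 0 lower. Of all tested probes, 0.533% were called higher and 0.288% lower. At an unadjusted p under 0.05 the companion probes numbered 3 higher and 4 lower, against 6.52% and 10.7% of all tested probes. The lower probes were those of Sod1, saturated on 14 and 15 arrays (-0.31 and -0.32), a Txnrd1 probe (-0.37) and Aldh3a1 (-0.23). The median difference of the companion probes was -0.02. Ephx1, the microsomal epoxide hydrolase that shares epoxide substrates with the transferases, rose 2.15-fold (log2 1.10, SE 0.20, limma adjusted p = 0.0129), to 6.10 ± 0.45 (SD, n = 8) in fipronil rats, against 5.00 ± 0.35 (SD, n = 7) in vehicle rats. Prdx1, a peroxiredoxin, rose 1.32-fold (log2 0.40, SE 0.08, limma adjusted p = 0.0278), to 7.57 ± 0.14 (SD, n = 8) in fipronil rats, against 7.17 ± 0.13 (SD, n = 7) in vehicle rats. Akr7a3, the aflatoxin aldehyde reductase, rose 1.90-fold (log2 0.92, SE 0.21, limma adjusted p = 0.0499), to 5.33 ± 0.40 (SD, n = 8) in fipronil rats, against 4.41 ± 0.47 (SD, n = 7) in vehicle rats. Calls held in 25 of 26 alternatives for Ephx1, 17 for Prdx1 and 10 for Akr7a3, and the highest adjusted p over the 26 was 0.124 for Ephx1, 0.177 for Prdx1 and 0.276 for Akr7a3. The quinone reductase gene Nqo1 had a difference of 0.23 (SE 0.29, limma adjusted p = 0.744). Nqo1 was not selected by the naming rule given below.

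Endothelial markers had the most unadjusted differences among the other cell types. Of 5 endothelial markers, 4 were tested, 0 were called by limma and 3 had an unadjusted p under 0.05, against 17.2% of all tested probes. The summed linear level of these markers ran between 67.3 and 128 in fipronil rats and between 56.2 and 77.1 in vehicle rats. Their part in the transferase values was not tested. Summed hepatocyte markers ran between 1534 and 2306 in fipronil rats and between 1928 and 3443 in vehicle rats. Saturation of these marker spots was not examined, and array brightness was higher with fipronil by 0.31 on the log2 scale. The sums were not tested between groups.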

How the data were processed

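Spot intensity values were written by the authors with Agilent Feature Extraction 9.5.3.1, per the file headers. The deposited processed intensity is background subtracted and detrended without any scaling from array to array, per the file headers. The deposited series table holds log2 values with no stated scaling, and the authors used limma, per the submitters' processing notes. Its column medians were 7.651 to 7.661, and its ranks followed those of the array's median spot intensity (Spearman 1.0 across 22244 probes), so it was read as log2 intensity not centred by gene, evened between arrays by a step no source states, and served as an alternative; how its probes were chosen is unknown.

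Outlier and control spots were left out and spots of a probe were averaged on the log2 scale. Each array's 75th percentile of probe averages was subtracted. Every probe was its own feature. Probes well above background on at least 7 arrays and missing on at most 3 were tested, 23258 in all. Fipronil (n = 8) was compared with vehicle (n = 7) in R 4.3.3 by the two-sided moderated test of limma 3.58.1 (functions lmFit and eBayes), with Benjamini-Hochberg adjustment. The code was tested on simulated data.

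Symbols and promoters came from RefSeq assembly GRCr8, and promoters of every measured gene were matched by symbol. Probe coordinates are rn4, per the file headers. Members and lists were chosen with earlier results of these data known. Named genes were all members, every list probe past the test, and the genes most like Gsta2 and Gstm2, of which some are not reported here. Alternatives were other background corrections, scalings and dim-probe filters, saturated spots left out, slide or replicate number as a block, brightness as a covariate, array weights, the brightest probe per gene, and each rat left out. Slide labels were read from the file headers.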

Additional observations from a re-analysis of the deposited data

Results flagged for a closer look

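In 26 groups of 7 or 8 rats (13 probes in 2 groups), a single rat stood far from the rest by Dixon's criterion in 4, and chance gives about 1 in 20 groups. Gsta2/Gsta5 was lowest in fipronil replicate 2 at a signal of 7.76, with the next rat at 8.10, and the spot was saturated there. Gstm3 was lowest in fipronil replicate 6 at -3.71, with the next rat at -3.01. Gstm5 probe 1 was lowest in vehicle replicate 4 at -3.84, with the next rat at -2.83. Gstm5 probe 3, above background on 0 of 15 arrays, was highest in fipronil replicate 4 at -4.56, with the next rat at -6.09.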

How the results depend on the processing

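The 11 member probes had 0 calls in the reported setting. They had 1 call higher with normexp, the authors' deposited values, quantile normalization or the filter requiring all 15 arrays, and 2 with slide as a block or array weights. Leaving out each rat in turn gave 0 to 2 calls higher, with 2 without fipronil replicate 6 and 1 without fipronil replicate 5 or vehicle replicate 3. No member probe was called lower in any of the 26 alternatives. The median member difference was 0.62 without saturated spots and 0.60 with brightness as a covariate, and 0.33 to 0.49 when a rat was left out. Reversals were Gsta1 with normexp (0.0001), and Gsta2/Gsta5 with normexp (0.0337) and in the authors' deposited values (0.0031). Over all probes, 124 were higher and 67 lower. No dim-probe filter gave 61 and 29, replicate number as a block 64 and 33, and brightness as a covariate 34 and 8. Leaving out a rat gave 72 to 167 higher and 30 to 140 lower, with 140 lower without vehicle replicate 3 and 106 without fipronil replicate 5. Calls higher in glutathione supply (1 as reported) were 2 with normexp, quantile normalization, the all-array filter or array weights, 0 with brightness, and 1 to 2 with a rat left out. The single lower call of other transferase classes became 0 in the authors' deposited values and with replicate number as a block. Companion calls higher (3 as reported) were 1 with no filter, 1 with the replicate block, 0 with brightness, and 1 to 3 with a rat left out. The causes were not tested. Same-numbered rats correlated between -0.04 and 0.37, over 0.1 in 3 of 7 pairs. They shared a slide except for replicate 6, so this check cannot separate pairing by number from slide. Whether the replicate numbers pair rats is not known, and the replicate block changed no member's call. Without saturated spots no value was available for Gsta1, Gsta2, Gsta2/Gsta5 or Gsta3. Saturation limits the bright alpha probes, and signal near background limits Gstm3 and Gstm5.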

Other observations

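Gsta2 and Gstm2 had the smallest p of their class among the 11 probes taken by name. Gsta4, taken by its description, had a smaller p than Gsta2. The genes most like Gsta2 and Gstm2 were sought among 10137 named genes, by Pearson correlation over 15 arrays after each group's mean was removed. For Gsta2 these included Epb41l3 (0.86), Nckap1l (0.86), Tmem192 (0.85) and Ckb (0.83). For Gstm2 they were Cep112 (0.83), Plekhb1 (0.82), Slc44a1 (0.81), Cacfd1 (0.81) and Adcy9 (0.81). These correlations describe the 15 arrays, carry no test, and share the arrays' scaling. The Gsta2 values include 5 saturated fipronil spots, whose scaled values follow array brightness. None of the genes named here was called between groups by limma, with the smallest adjusted p at 0.191 for Tmem192.

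Among the remaining member promoters, the antioxidant response element core TGACNNNGC was found in the Gsta3 promoter at chr9:31154739-31155038, starting 17 bases before the start site. The other Gsta3 promoter, at chr9:31166793-31167092, did not hold it. Gstm5 held the core starting 113 and 53 bases before its start site, and the match at 113 overlaps a reverse-strand GCGTG. In Gstm7, which is outside the member symbols, the core started 14 bases before the start site. Gsta1 also held it after its start site. The Gsta1 promoter was 57.7% identical to the Gsta3 promoter at chr9:31154739-31155038 when aligned. Its identity to the other Gsta3 promoter was lower, within the range given above for pairs of an alpha and a mu promoter.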
